A study of Mus musculus with 12 samples.

Results

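A set of 35 mouse genes of glycolysis and of the response to low oxygen was followed in bone marrow macrophages with and without lipopolysaccharide (LPS), the outer membrane component of Gram-negative bacteria that Toll-like receptor 4 senses. The set was chosen by gene name, and a gene was represented by the probe set, among those annotated with its symbol alone, that had the highest mean signal over all arrays. Such a probe set was found for 32 of the 35 genes, and 31 of them entered the test, among 12914 genes tested. Gapdh, the glyceraldehyde-3-phosphate dehydrogenase, is carried by array control probe sets, so its levels are given without a test. Gpi1 (glucose-6-phosphate isomerase), Eno1 (enolase) and Bnip3l (a mitophagy receptor) were not analysed here, since no probe set carried one of these symbols alone.

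The study asked how macrophages of wild-type mice (WT) and of mice whose IRAK4 is kinase dead (KD) answer to LPS. IRAK4 is a protein kinase recruited by the adaptor MyD88, through which Toll-like receptors and interleukin receptors signal. Each strain was kept for 4 h without LPS, or with LPS at 1 µg/ml for 1 h or for 4 h, and each of these 6 groups had 2 arrays, described as biological replicates. All groups shared the same culture medium, which held fetal calf serum and conditioned medium. The labels name no further allele and no age or sex, and do not say whether replicates came from separate animals. The p-values rest on the spread between arrays within groups, pooled over the 6 groups and drawn toward that of probe sets of similar signal. Whether this spread includes that between animals is not known. Since the cultures without LPS lasted 4 h, the effects of LPS and of culture time cannot be told apart at 1 h. The transcript of Irak4 was not analysed here, and the strain labels were not checked by it. Oxygen was not varied in the study.

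Glycolysis turns glucose into pyruvate in the cytosol, and macrophages stimulated through Toll-like receptor 4 are known for leaning on it and for releasing lactate. HIF-1α, encoded by Hif1a, is a transcription factor whose protein is marked for destruction by prolyl hydroxylases (Egln1, Egln3) when oxygen is present. When stable, it binds the short DNA core of the hypoxia response element and switches on glucose transporters, most glycolytic enzymes, and genes for vessel growth, mitophagy and collagen hydroxylation. In macrophages, Hif1a is also known as a target of NF-κB, the transcription factor family that works below MyD88.

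The arrays gave linear signals scaled to the same trimmed mean of 150. The median signal of an array was 18.9 to 22 in the WT arrays and 24.2 to 26.9 in the KD arrays, and Spearman's correlation between replicates was 0.932 to 0.959. Macrophage markers were measured with 8 of 8 genes, among them Csf1r (3717.2 to 6060.3) and Adgre1 (2128.5 to 2944.5). The dimmest were Itgam (11.8 to 88.8) and Mertk (34.4 to 186.3). The sum over the 8 markers was 17847.2 to 25917.4. Stromal cell markers were also present. The summed signal of 12 such genes was 3703.9 to 3780.4 in unstimulated WT, 3810.6 to 3845.2 in WT at 1 h and 2891.6 to 3049.8 in WT at 4 h. In KD it was 1788.5 to 2194.1 unstimulated, 3096.5 to 3944.3 at 1 h and 3336.8 to 3636.5 at 4 h. Lum was under the array median on all 12 arrays, whereas Col1a1 reached 599.5 to 1451.1. Of the 11 stromal markers tested, 5 rose in KD at 1 h, 5 rose in KD at 4 h, and 5 were lower in KD than in WT without LPS. Of the neutrophil list, 7 of 8 genes were measured, with a summed signal of 804 to 977.2 in WT and 1776.5 to 2466.3 in KD, of which S100a8 gave 742 to 2390.2, while S100a9 lay at 1.8 to 18.5. Summed signals of the B cell, T/NK cell, red cell, mast cell and dendritic cell lists reached at most 54.6, 66.8, 55.8, 99.1 and 101.5. The part of stromal cells and of S100a8-expressing cells in the results was not tested. In these bulk samples, fewer cells of a type and less RNA per cell cannot be told apart.

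The glycolysis and hypoxia genes were bright. The median over the 31 tested members of the mean signal was 487.4, against 68.51 over all tested probe sets, and 3 members lay under the latter value. The shares of all tested probe sets set beside the members, here and below, were not matched for signal. Changes are differences of log2(signal + 4.4), given with the standard error (SE) of the fit, and a probe set is called higher or lower at an adjusted p under 0.05 in limma over all 27931 probe sets tested. In WT, 7 members rose and 1 fell after 1 h of LPS, which is 25.8% of 31, where 6.12% of all tested probe sets were called (2.89% higher and 3.23% lower). After 4 h in WT, 7 rose and 3 fell, which is 32.3%, against 17.1% of all (6.95% higher and 10.2% lower). In KD, 3 rose and 0 fell at 1 h, which is 9.68%, against 5.47% of all (3.17% higher and 2.29% lower). At 4 h in KD, 3 rose and 3 fell, which is 19.4%, against 10% of all (5.3% higher and 4.7% lower). The median log2 change over the members was 0.134 in WT at 1 h, 0.00463 in WT at 4 h, 0.0982 in KD at 1 h and -0.117 in KD at 4 h. Over all tested probe sets it was -0.0329, -0.119, -0.00621 and -0.0456. At 4 h the members thus split into genes that rose, genes that fell and a larger number that were not called.

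**Figure D1:**
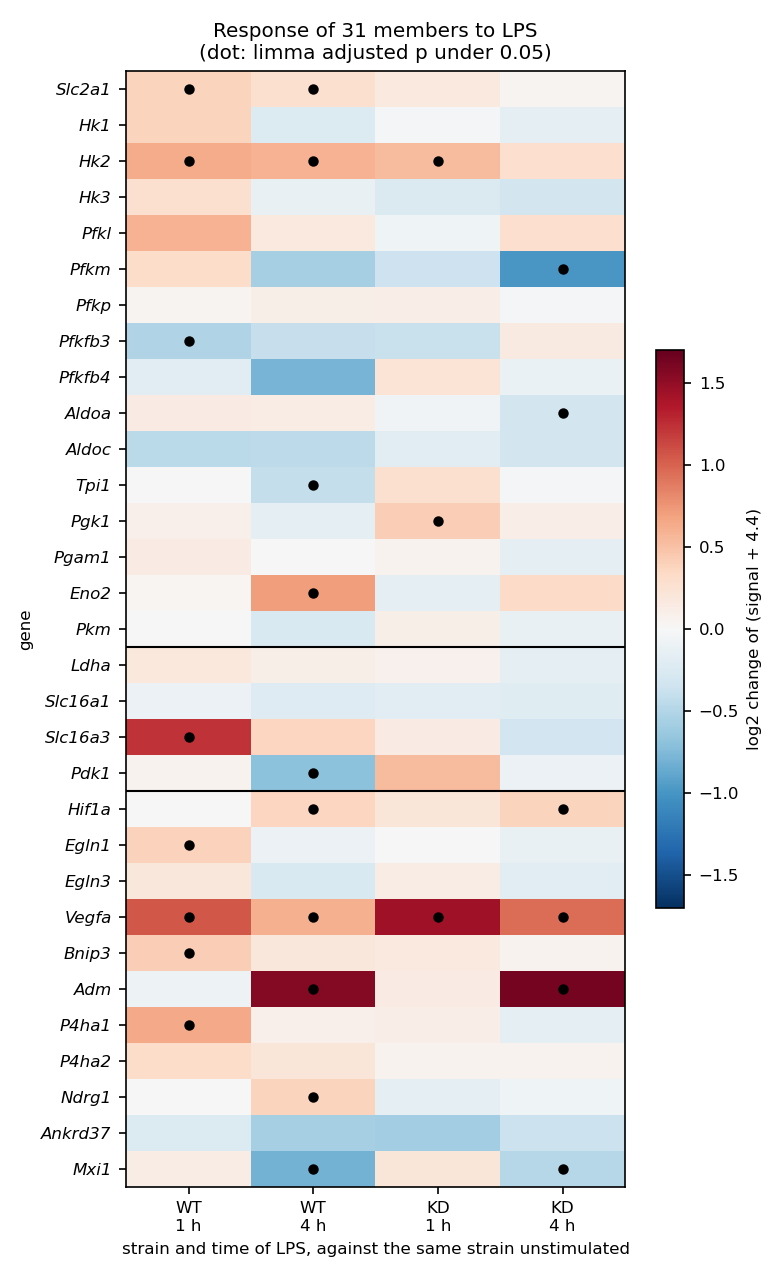
Log2 change of signal + 4.4 against the unstimulated cultures of the same strain for the 31 tested members (rows, grouped into glucose uptake and glycolysis, lactate and pyruvate fate, and HIF sensing with other hypoxia response genes), in 4 columns for WT and KD at 1 h and 4 h of LPS. Red is higher and blue is lower with LPS, and a dot marks limma's adjusted p under 0.05; Vegfa is called in all 4 columns and Adm only in the 2 columns at 4 h (1.57 in WT and 1.62 in KD).

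Glucose uptake and the first, committing steps of glycolysis moved in a few isozymes. Of the 16 tested members of uptake and glycolysis, 2 rose and 1 fell in WT at 1 h, and 3 rose and 1 fell at 4 h. In KD, 2 rose at 1 h and 2 fell at 4 h. Of all tested probe sets, 2.89% rose and 3.23% fell in WT at 1 h, and 6.95% rose and 10.2% fell at 4 h. In KD these shares were 3.17% and 2.29% at 1 h, and 5.3% and 4.7% at 4 h. Slc2a1 encodes GLUT1, the main glucose transporter of many cells. Its WT signals were 3649.2 and 3704.4 without LPS, 4485.7 and 5099.3 at 1 h, and 4836.0 and 4055.8 at 4 h. The KD signals were 4341.4 and 4127.3 without LPS, 4777.9 and 4691.7 at 1 h, and 4261.9 and 4492.3 at 4 h. The WT arrays with LPS all lay above those without it. The log2 change in WT was 0.38 ± 0.09 at 1 h (limma adjusted p = 0.0125) and 0.27 ± 0.09 at 4 h (adjusted p = 0.0414). In KD, the change of this probe set was not called at either time, but another Slc2a1 probe set rose in KD by 0.46 ± 0.10 at 1 h (limma adjusted p = 0.00526) and by 0.34 ± 0.10 at 4 h (adjusted p = 0.0259). In WT that probe set rose by 0.67 ± 0.10 at 1 h and 0.52 ± 0.10 at 4 h.

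Hk2 encodes hexokinase 2, the inducible enzyme that traps glucose by phosphorylation at mitochondria. Its signals in WT were 359.9 and 362.8 without LPS, 550.1 and 578.6 at 1 h, and 528.8 and 569.3 at 4 h. KD cultures gave 368.2 and 422.8, then 602.5 and 545.5 at 1 h, and 476.4 and 484.5 at 4 h. In both strains every array with LPS lay above every array without it. In WT the log2 change was 0.64 ± 0.12 at 1 h (limma adjusted p = 0.00274) and 0.60 ± 0.12 at 4 h (adjusted p = 0.00153), and both calls held in each fit that left out 1 array. In such a fit 1 group has a single array, which is assumed to vary like the arrays of the other groups. In KD the change at 4 h was not called, and the change at 1 h was 0.53 ± 0.12 (limma adjusted p = 0.0117). That call was lost without KD unstimulated replicate 1 (0.44, adjusted p = 0.0917) and without KD 1 h replicate 1 (0.46, adjusted p = 0.122). Among the other hexokinases, Hk1, the housekeeping form, ranged from 108.0 to 240.8 over all arrays and was called in no comparison. Hk3, the form of myeloid cells, gave 522.0 and 555.2 in WT at 1 h and 387.6 and 430.4 at 4 h. The fall of 0.39 on the log2 scale between these times was called (adjusted p = 0.0397), but in none of the 4 fits that left out 1 of its arrays, and a second Hk3 probe set changed by 0.10, in the other direction.

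Phosphofructokinase makes the committing step, and the PFKFB enzymes set the level of its activator fructose-2,6-bisphosphate. Pfkp, the platelet-type subunit, gave 907.2 to 1197.5 over all 12 arrays, and Pfkl, the liver-type subunit, 90.2 to 171.5, and neither was called in any comparison. Pfkm, the muscle-type subunit, is dim: its signals in WT were 74.1 and 52.6 without LPS, 76.4 and 81.6 at 1 h, and 43.0 and 38.4 at 4 h. The KD arrays showed 65.0 and 91.3, then 62.5 and 57.1, and 29.2 and 45.4. The 4 h arrays were the lowest in both strains. Pfkm fell in KD at 4 h against no LPS by 0.99 ± 0.30 on the log2 scale (limma adjusted p = 0.0379), a call lost without KD unstimulated replicate 2 (-0.76, adjusted p = 0.251) and without KD 4 h replicate 1 (-0.71, adjusted p = 0.322). In WT the fall from 1 h to 4 h was 0.89 ± 0.30 (adjusted p = 0.0478), and it was called in none of the 4 fits without one of its arrays.

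Pfkfb3 encodes the isozyme whose kinase activity far exceeds its phosphatase activity. WT arrays gave 400.4 and 441.2 without LPS, 281.8 and 308.4 at 1 h, and 302.7 and 335.9 at 4 h. In the KD strain, signals were 316.9 and 352.8, then 247.3 and 267.1 at 1 h, and 395.8 and 350.3 at 4 h. In each strain the 1 h arrays lay below the unstimulated ones, and the KD arrays at 4 h lay above those at 1 h. The log2 change in WT at 1 h was -0.51 ± 0.14 (limma adjusted p = 0.0352), called in none of the 4 fits that left out an array. In KD from 1 h to 4 h it was 0.53 ± 0.14 (adjusted p = 0.0215), and the call held in 1 of 4 such fits. A dimmer second probe set, with a mean signal of 17.2, changed by 1.03 in WT at 1 h (adjusted p = 0.489), the other way. Pfkfb4, a second isozyme, ranged from 30.2 to 78.3 and was not called.

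In the lower part of the pathway, Eno2 rose and Tpi1 fell in WT at 4 h, Pgk1 rose in KD at 1 h and Aldoa fell in KD at 4 h, and the other tested enzymes were not called against no LPS. Aldoa, the aldolase of glycolysis, lay at 4628.3 to 6882.2 over all arrays, and Aldoc, its paralogue, at 76.1 to 160.5. Pgam1, phosphoglycerate mutase, lay at 4113.0 to 5411.1, and Pkm, pyruvate kinase, at 2926.2 to 4131.5. Aldoc, Pgam1 and Pkm were called in no comparison. Gapdh, by its probe set at the 3′ end, gave 4500.8 and 4830.2 in unstimulated WT, 5564.3 and 6350.4 at 1 h, and 5482.9 and 5032.2 at 4 h. In KD it gave 7289.3 and 6156.5 without LPS, 6461.0 and 6376.2 at 1 h, and 5115.5 and 5653.5 at 4 h. The KD arrays without LPS lay above the WT arrays without LPS, and the KD arrays at 4 h lay below the other KD arrays.

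Tpi1, triose phosphate isomerase, was the glycolytic enzyme that fell in WT at 4 h. Signals in WT were 1663.5 and 1643.1 without LPS, 1672.2 and 1614.0 at 1 h, and 1195.5 and 1308.3 at 4 h. In KD they were 1338.2 and 1381.6, then 1631.4 and 1651.9, and 1375.2 and 1275.4. The WT arrays at 4 h were thus apart from the other WT arrays, whereas in KD the unstimulated and the 4 h arrays overlapped. In WT the log2 change at 4 h was -0.40 ± 0.09 (limma adjusted p = 0.00349), a call lost without WT 4 h replicate 1 (-0.34, adjusted p = 0.0663). A second probe set of Tpi1 was called with -0.33, and the third gave -0.22 and was not called.

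Pgk1, phosphoglycerate kinase, makes the first ATP of the pathway. Its WT signals were 4493.4 and 4090.3 without LPS, 4385.7 and 4690.2 at 1 h, and 3587.3 and 4135.7 at 4 h. The KD signals were 4505.6 and 3924.3, then 5703.0 and 5511.2 at 1 h, and 4508.6 and 4552.8 at 4 h. The KD arrays at 1 h were the highest of the 12. The log2 change in KD at 1 h was 0.41 ± 0.09 (limma adjusted p = 0.00675), lost without KD unstimulated replicate 2 (0.32, adjusted p = 0.0827) and without KD 1 h replicate 1 (0.39, adjusted p = 0.0784). Both other Pgk1 probe sets stayed uncalled there, with changes of 0.01 and 0.09. The fall in KD from 1 h to 4 h was 0.31 on the log2 scale (adjusted p = 0.0343), called in none of the 4 fits without an array and not after quantile normalization (-0.15, adjusted p = 0.317).

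Eno2 encodes the neuron-type enolase, a gene known to answer to hypoxia. WT arrays gave 2379.3 and 2451.3 without LPS, 2308.0 and 2649.8 at 1 h, and 4095.2 and 3841.4 at 4 h. KD cultures gave 2083.7 and 1926.6, then 1695.4 and 1915.3, and 2269.9 and 2796.4 at 4 h. Both WT arrays at 4 h stood above all 10 other arrays. The log2 change in WT at 4 h was 0.71 ± 0.10, which is 1.64-fold (limma adjusted p = 4.97e-05), and the call held in each of the 4 fits that left out an array. In KD the change at 4 h was 0.33 ± 0.10 against no LPS (adjusted p = 0.0515, not called) and 0.48 against 1 h (adjusted p = 0.00545). The latter call was lost without KD 1 h replicate 1 (0.39, adjusted p = 0.0904) and without KD 4 h replicate 2 (0.33, adjusted p = 0.128).

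Of the 4 members that decide the fate of pyruvate and lactate, 1 rose in WT at 1 h and 1 fell in WT at 4 h. In KD, 0 were called against no LPS. Over all tested probe sets, 2.89% rose in WT at 1 h and 10.2% fell in WT at 4 h. In KD, 5.47% of all were called at 1 h and 10% at 4 h. Slc16a3 encodes MCT4, the transporter that exports lactate. Signals in WT were 321.6 and 278.1 without LPS, 464.0 and 1076.1 at 1 h, and 433.0 and 342.7 at 4 h. The KD arrays showed 313.3 and 416.1, then 383.3 and 412.8, and 306.3 and 268.3. The WT arrays at 1 h were the highest of the 12, and differed from each other more than any other pair. In WT the log2 change at 1 h was 1.23 ± 0.25 (limma adjusted p = 0.00515). Without WT 1 h replicate 2 it was 0.63 (adjusted p = 0.118), and without WT unstimulated replicate 2 it was 1.13 (adjusted p = 0.0644). From 1 h to 4 h it fell by 0.87 ± 0.25 in WT (adjusted p = 0.0238), but by 0.27 without WT 1 h replicate 2 (adjusted p = 0.490) and by 0.70 without WT 4 h replicate 2 (adjusted p = 0.195). Slc16a1, which encodes the lactate carrier MCT1, lay at 290.2 to 442.9 and was called in no comparison.

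Pdk1 encodes a kinase that shuts pyruvate dehydrogenase and is a classical HIF-1 target. Its WT signals were 251.9 and 225.3 without LPS, 284.5 and 215.1 at 1 h, and 144.5 and 145.9 at 4 h. In the KD strain, signals were 210.6 and 201.7, then 297.3 and 308.0, and 171.1 and 216.6. Both WT arrays at 4 h were the lowest of all. The log2 change in WT at 4 h was -0.70 ± 0.17 against no LPS (limma adjusted p = 0.00692) and -0.75 ± 0.17 against 1 h (adjusted p = 0.00445), and at 4 h against no LPS 2 of the 3 other Pdk1 probe sets were called in the same direction (-0.84 and -0.62), while a dim one, with a mean signal of 32.5, gave -0.55 and was not called. The call against no LPS was lost without WT unstimulated replicate 1 (-0.62, adjusted p = 0.0835) and without WT 4 h replicate 1 (-0.69, adjusted p = 0.0515), and the call against 1 h without WT 1 h replicate 1 (-0.55, adjusted p = 0.0781). In KD, Pdk1 fell from 1 h to 4 h by 0.64 on the log2 scale (adjusted p = 0.0235), a call held in 1 of 4 such fits. Ldha, which makes lactate from pyruvate, lay at 2687.3 to 3754.6, and was called in no comparison of LPS with no LPS.

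Among the 11 tested members of HIF sensing and of the wider hypoxia response, 4 rose and 0 fell in WT at 1 h. At 4 h in WT, 4 rose and 1 fell. In KD, 1 rose at 1 h, and 3 rose and 1 fell at 4 h. Over all tested probe sets, 2.89% rose and 3.23% fell in WT at 1 h, and 6.95% rose and 10.2% fell at 4 h. In KD, 3.17% rose and 2.29% fell at 1 h, and 5.3% rose and 4.7% fell at 4 h. Hif1a signals in WT were 2693.5 and 2684.8 without LPS, 2713.7 and 2618.4 at 1 h, and 3535.6 and 3422.2 at 4 h. In KD they were 2401.3 and 2453.6, then 2857.9 and 2752.4, and 3250.6 and 3087.3. In each strain the 4 h arrays stood above all others. The log2 change at 4 h was 0.37 ± 0.08 in WT (limma adjusted p = 0.00176) and 0.38 ± 0.08 in KD (adjusted p = 0.00233), called in each fit that left out an array. At 1 h this probe set was called in neither strain. Of the other Hif1a probe sets, one rose at 1 h in WT by 0.39 ± 0.09 (adjusted p = 0.0144), and another rose at 1 h in both strains, by 0.52 ± 0.13 in WT (adjusted p = 0.0205) and 0.67 ± 0.13 in KD (adjusted p = 0.00377). At 4 h these probe sets rose by 0.76 and 1.15 in WT and by 0.56 and 0.95 in KD, so the size of the Hif1a change differed between probe sets. A dim further one gave 0.69 in WT (not called) and 1.36 in KD (adjusted p = 0.0479).

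Egln1 encodes PHD2, the main oxygen-sensing hydroxylase of HIF-1α. WT arrays gave 715.0 and 682.5 without LPS, 864.4 and 972.3 at 1 h, and 670.2 and 629.1 at 4 h. The KD signals were 693.0 and 767.6, then 757.1 and 701.2, and 671.8 and 663.9. The WT arrays at 1 h were the highest. In WT the log2 change was 0.39 ± 0.11 at 1 h (limma adjusted p = 0.0410), held in 1 of 4 fits that left out an array, and -0.49 ± 0.11 from 1 h to 4 h (adjusted p = 0.00368), lost without WT 1 h replicate 2 (-0.41, adjusted p = 0.0521). A second Egln1 probe set gave 0.30 in WT at 1 h and was not called. Egln3, which encodes the hydroxylase PHD3, lay at 76.7 to 138.0 and was not called.

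Vegfa and Adm, which code for secreted factors, rose in both strains. Vegfa encodes the vessel growth factor VEGF-A. Signals in WT were 128.0 and 147.7 without LPS, 323.1 and 261.4 at 1 h, and 181.3 and 246.7 at 4 h. KD cultures gave 103.8 and 114.3, then 300.8 and 304.6, and 238.1 and 191.5. In each strain every array with LPS lay above every array without it, and the 1 h arrays lay above the 4 h arrays. At 1 h the log2 change was 1.06 ± 0.19 in WT, 2.08-fold (limma adjusted p = 0.00128), and 1.44 ± 0.19 in KD, 2.71-fold (adjusted p = 5.69e-05), and both calls held in each fit that left out an array. At 4 h it was 0.61 ± 0.19 in WT (adjusted p = 0.0292), held in 1 of 4 such fits, and 0.94 ± 0.19 in KD (adjusted p = 0.00201), lost without KD 4 h replicate 1 (0.79, adjusted p = 0.0512). A dim second probe set, with a mean signal of 25.8, gave 0.98, 0.16, 0.80 and 0.92 in WT at 1 h and 4 h and in KD at 1 h and 4 h, none called.

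Adm encodes adrenomedullin, a vessel-dilating peptide. Its WT signals were 387.5 and 419.7 without LPS, 330.4 and 432.5 at 1 h, and 1228.0 and 1178.4 at 4 h. The KD arrays showed 245.2 and 216.0, then 297.5 and 217.3, and 701.2 and 737.0 at 4 h. In both strains the 1 h arrays overlapped the unstimulated ones and the 4 h arrays stood far above both. At 4 h the log2 change was 1.57 ± 0.16 in WT, 2.96-fold (limma adjusted p = 4.22e-07), and 1.62 ± 0.16 in KD, 3.08-fold (adjusted p = 5.86e-07). Both calls held in each fit that left out an array. A dimmer second probe set, with a mean signal of 61.0, gave 1.03 in WT (adjusted p = 0.0633, not called) and 1.22 in KD (adjusted p = 0.0409).

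**Figure D2:**
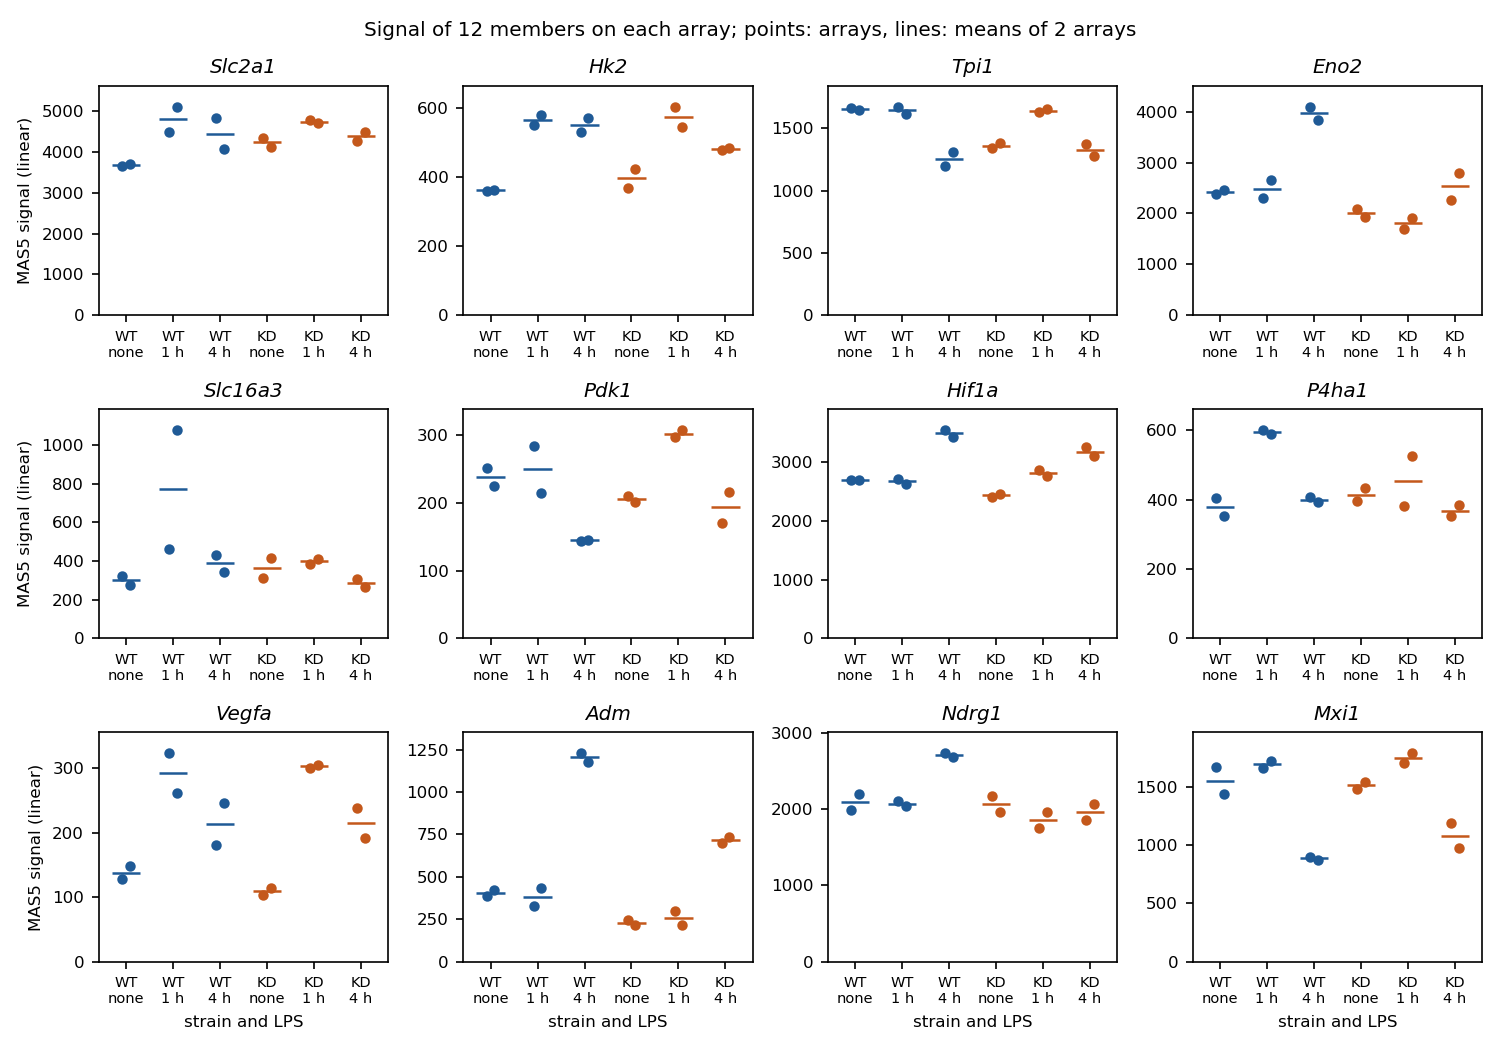
Signal (linear MAS5 units, from 0) of 12 members on each of the 12 arrays, by strain (WT blue, KD orange) and LPS time (none, 1 h, 4 h); points are arrays and lines the means of 2 arrays. Vegfa is highest at 1 h in both strains (261.4 to 323.1), Adm rises at 4 h alone, and Mxi1, Pdk1 and Tpi1 have their lowest WT values at 4 h; signals of different genes are not on one scale.

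Of the remaining hypoxia response members, Bnip3 and P4ha1 rose early and Ndrg1 late. Bnip3, a mitophagy receptor, gave 606.4 and 613.2 in WT without LPS, 843.3 and 792.1 at 1 h, and 681.5 and 715.1 at 4 h. In KD it gave 607.2 and 573.5, then 617.6 and 713.8, and 581.4 and 647.0. The change in WT at 1 h was 0.42 ± 0.11 on the log2 scale (limma adjusted p = 0.0325), called in none of the 4 fits without an array. P4ha1, the catalytic subunit of collagen prolyl hydroxylase, gave 403.3 and 354.2 in WT without LPS, 600.4 and 589.8 at 1 h, and 408.4 and 392.2 at 4 h. In KD it gave 395.2 and 432.2, then 381.9 and 525.5, and 353.1 and 383.3. The WT arrays at 1 h stood above all others. P4ha1 rose in WT at 1 h by 0.65 ± 0.15 (adjusted p = 0.00975), lost without WT unstimulated replicate 2 (0.56, adjusted p = 0.115) and without WT 1 h replicate 2 (0.66, adjusted p = 0.0613), and fell from 1 h to 4 h by 0.57 ± 0.15 (adjusted p = 0.0104), held in 1 of 4 fits. A second P4ha1 probe set gave 0.23 in WT at 1 h and was not called. P4ha2, its paralogue, lay at 34.1 to 70.3 and was not called.

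Ndrg1, a stress-responsive gene widely used as a hypoxia marker, gave 1985.1 and 2197.2 in WT without LPS, 2105.3 and 2034.5 at 1 h, and 2731.2 and 2688.0 at 4 h. In KD it gave 2166.3 and 1958.1, then 1756.0 and 1958.9, and 1851.1 and 2067.3. The 4 h arrays of WT were the highest of the 12, and in KD all groups overlapped. The change in WT at 4 h was 0.37 ± 0.09 on the log2 scale (limma adjusted p = 0.00802), lost without WT unstimulated replicate 1 (0.30, adjusted p = 0.123) and without WT 4 h replicate 1 (0.36, adjusted p = 0.0661). Another Ndrg1 probe set was called with 0.41, others gave 0.50 and 0.37 without a call, and a dim one, with a mean of 34.6, gave -0.30. Ankrd37, a HIF-1 target, gave 127.4 and 103.4 in WT without LPS, 95.2 and 99.7 at 1 h, and 69.5 and 83.1 at 4 h. In KD it gave 183.3 and 177.5, then 120.5 and 115.2, and 133.4 and 143.8. Its change in WT at 4 h was -0.57 ± 0.20 (adjusted p = 0.0543), not called.

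Mxi1 encodes a partner of MAX that opposes MYC, and it is known as a HIF-1 target. WT arrays gave 1666.7 and 1437.2 without LPS, 1661.3 and 1722.2 at 1 h, and 897.4 and 875.2 at 4 h. In the KD strain, signals were 1479.0 and 1540.2, then 1698.6 and 1785.2, and 1187.1 and 971.3. In each strain both 4 h arrays lay below all other arrays of the strain. At 4 h the log2 change against no LPS was -0.80 ± 0.11 in WT (limma adjusted p = 1.62e-05), held in every fit that left out an array, and -0.49 ± 0.11 in KD (adjusted p = 0.00456), lost without KD 4 h replicate 2 (-0.35, adjusted p = 0.111). A dim second probe set, with a mean signal of 12.0, gave 0.16 in WT at 4 h and was not called. Adm and Mxi1 thus had the largest rise and the largest fall among the called members in WT at 4 h.

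The arrays at 1 h and at 4 h of LPS were also compared with each other. Between 1 h and 4 h of LPS in WT, 4 members rose (Eno2, Hif1a, Adm, Ndrg1) and 8 fell (Hk3, Pfkm, Tpi1, Slc16a3, Egln1, Pdk1, P4ha1, Mxi1), which is 38.7% of 31, against 15.8% of all tested probe sets (7.1% higher and 8.74% lower). In KD, 3 rose (Pfkfb3, Eno2, Adm) and 4 fell (Tpi1, Pgk1, Pdk1, Mxi1), which is 22.6%, against 8.43% of all (4.55% higher and 3.88% lower). The strongest of these steps were the rise of Adm, 1.66 ± 0.16 in WT (limma adjusted p = 3.05e-07) and 1.48 in KD (adjusted p = 2.83e-06), and the fall of Mxi1, 0.93 ± 0.11 in WT (adjusted p = 3.86e-06) and 0.70 in KD (adjusted p = 0.000236). Of the 8 that fell in WT, Slc16a3, Egln1 and P4ha1 had been called higher at 1 h. Tpi1, Pdk1 and Mxi1 were instead lower at 4 h than without LPS, and Hk3 and Pfkm were called against no LPS at neither time. The steps from 1 h to 4 h share their arrays with the comparisons against no LPS.

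The promoters of 6 members with the largest changes among those called in WT at 4 h are shown because these genes went in both directions, and because HIF and NF-κB are the factors known to act on this gene set. The 250 bases before the annotated start were read from RefSeq on GRCm38.p6, on the strand of the gene, 5′ to 3′, with capitals marking matches on either strand to the hypoxia response element core (ACGTG or GCGTG, which overlaps the E-box CACGTG) or to the NF-kB motif. They lie at chr6:82774455-82774704 for Hk2 (minus strand), chr2:71872974-71873223 for Pdk1 (plus), chr7:110627407-110627656 for Adm (plus), chr17:46032378-46032627 for Vegfa (minus), chr6:124769674-124769923 for Eno2 (minus) and chr19:53310256-53310505 for Mxi1 (plus).
Hk2: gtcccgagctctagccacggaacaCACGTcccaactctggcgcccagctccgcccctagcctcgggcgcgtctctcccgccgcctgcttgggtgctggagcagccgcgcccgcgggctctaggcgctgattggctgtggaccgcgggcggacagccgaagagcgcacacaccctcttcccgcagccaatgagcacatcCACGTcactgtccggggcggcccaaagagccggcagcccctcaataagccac
Pdk1: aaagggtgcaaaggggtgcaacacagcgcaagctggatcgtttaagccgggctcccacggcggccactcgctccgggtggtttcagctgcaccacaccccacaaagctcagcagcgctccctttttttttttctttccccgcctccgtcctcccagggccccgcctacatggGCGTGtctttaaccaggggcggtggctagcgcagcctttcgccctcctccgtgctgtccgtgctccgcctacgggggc
Adm: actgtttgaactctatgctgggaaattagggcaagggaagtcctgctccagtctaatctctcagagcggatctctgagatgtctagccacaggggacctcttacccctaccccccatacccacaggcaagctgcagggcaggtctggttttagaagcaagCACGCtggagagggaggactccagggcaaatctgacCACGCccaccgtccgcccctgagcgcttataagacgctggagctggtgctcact
Vegfa: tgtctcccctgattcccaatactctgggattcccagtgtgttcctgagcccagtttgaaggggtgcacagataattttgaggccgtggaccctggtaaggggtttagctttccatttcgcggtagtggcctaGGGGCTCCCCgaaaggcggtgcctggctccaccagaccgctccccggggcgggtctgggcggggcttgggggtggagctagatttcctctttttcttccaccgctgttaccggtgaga
Eno2: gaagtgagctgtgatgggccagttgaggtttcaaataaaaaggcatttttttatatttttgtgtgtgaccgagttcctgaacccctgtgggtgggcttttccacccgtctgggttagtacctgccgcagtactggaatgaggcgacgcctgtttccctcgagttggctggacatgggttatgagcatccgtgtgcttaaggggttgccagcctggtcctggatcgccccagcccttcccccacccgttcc
Mxi1: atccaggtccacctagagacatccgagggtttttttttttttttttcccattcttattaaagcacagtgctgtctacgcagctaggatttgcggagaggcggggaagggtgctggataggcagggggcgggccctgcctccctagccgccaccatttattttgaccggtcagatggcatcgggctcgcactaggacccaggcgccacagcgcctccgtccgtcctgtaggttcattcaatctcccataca
The core was found in Hk2, where CACGT begins 226 and 52 bases before the start, in Pdk1, where GCGTG begins 78 bases before it, and in Adm, where CACGC begins 90 and 54 bases before it. In Vegfa the capitals are a match to the NF-kB motif that begins 118 bases before the start, and the windows of Eno2 and Mxi1 hold none of these letters. A window was found for 30 of the 31 tested members (none for Ndrg1), and 23 of 30 (76.7%) hold the core, against 38.6% of the windows of 27025 genes. ACGTG was in 56.7% of the members' windows and 16.5% of all, GCGTG in 46.7% and 28.3%, CACGTG in 16.7% and 6.04%, and the NF-kB motif in 1 of 30 (3.33%) and 3.74%. By response, the core was in 6 of the 7 members that rose in WT at 1 h, in 4 of the 6 with a window that rose in WT at 4 h, in 1 of the 3 that fell at 4 h, and in 13 of the 16 called at neither time. A match is a string of letters and no evidence of binding, and genes are not independent draws. The members were listed as glycolysis and hypoxia genes, so their higher share of the core only describes the list. The comparison was with all genes that have a window, not with the genes tested.

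The strains were compared in their LPS responses and in their levels. Of the members that rose at 1 h, Hk2 and Vegfa did so in both strains, which is 2 of the 7 that rose in WT and 2 of the 3 in KD. At 4 h, Hif1a, Vegfa and Adm rose in both, which is 3 of 7 in WT and 3 of 3 in KD, and Mxi1 fell in both, which is 1 of 3 in each. The changes had the same sign in both strains for 19 of 31 members at 1 h and for 22 of 31 at 4 h, and Pearson's r across the 31 members was 0.502 and 0.767 (a description across genes that share arrays). The change was smaller in KD for 16 of 31 members at 1 h and for 20 of 31 at 4 h. The overlap, sign and size counts were made for the members alone. Whether they differ from those of the whole array was not tested. Array-wide, the share with a called response to LPS was lower in KD than in WT. It was 5.47% against 6.12% at 1 h, and 10% against 17.1% at 4 h.

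**Figure D3:**
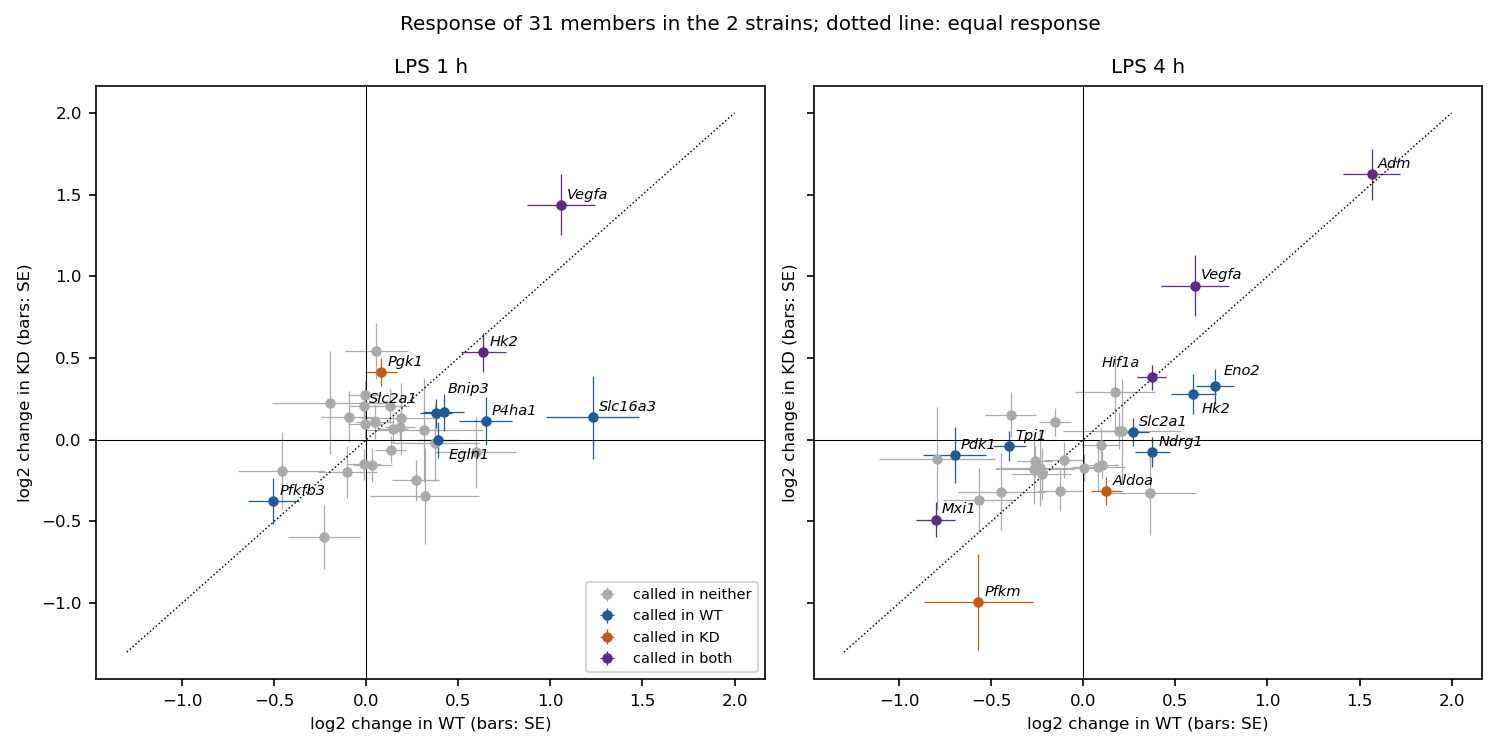
Log2 change with LPS in KD (vertical axis) against WT (horizontal axis) for the 31 tested members at 1 h (left) and 4 h (right), with SE bars and a dotted line of equal response. Colours show where limma's adjusted p was under 0.05; Adm at 4 h lies close to the line (1.57 and 1.62), and Slc16a3 at 1 h lies far to the right of it (1.23 in WT) on a wide bar.

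In the test of the difference itself, the KD response minus the WT response, 0 of 31 members were called at 1 h, where 0.326% of all tested probe sets were, and 0 of 31 at 4 h, against 3.07% of all (1.88% higher and 1.19% lower). With limma's unadjusted p under 0.05 there were 7 members at 1 h and 8 at 4 h. The share of all tested probe sets at that cut was not worked out, so nothing is read from these counts. At 4 h, Aldoa had the lowest adjusted p, with a difference of -0.44 ± 0.12 (95% interval -0.69 to -0.19, adjusted p = 0.0522). It was called without WT unstimulated replicate 2, without WT 4 h replicate 2, without KD unstimulated replicate 2, and with a pseudocount at the median. One other Aldoa probe set was called for this difference (-0.52, adjusted p = 0.0224). Ndrg1 had -0.45 ± 0.13 (-0.73 to -0.17, adjusted p = 0.0776), Tpi1 0.36 (0.10 to 0.63, adjusted p = 0.151), Pfkfb3 0.55 (0.14 to 0.96, adjusted p = 0.162) and Pdk1 0.60 (0.09 to 1.11, adjusted p = 0.223). For other members the 95% intervals were -0.40 to 0.52 for Adm (difference 0.06), -0.21 to 0.24 for Hif1a (0.01), -0.21 to 0.89 for Vegfa (0.34) and -0.68 to 0.04 for Hk2 (-0.32). These intervals are not adjusted for the number of members and hold for the probe set used. They do not bound the gene, and the other Hif1a probe sets gave changes of other sizes. At 1 h, Slc16a3 had a difference of -1.09 ± 0.36 (-1.84 to -0.34, adjusted p = 0.227), and was called in the fit without WT 1 h replicate 1, which leaves that group with its higher array, 1076.1, alone.

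**Figure D4:**
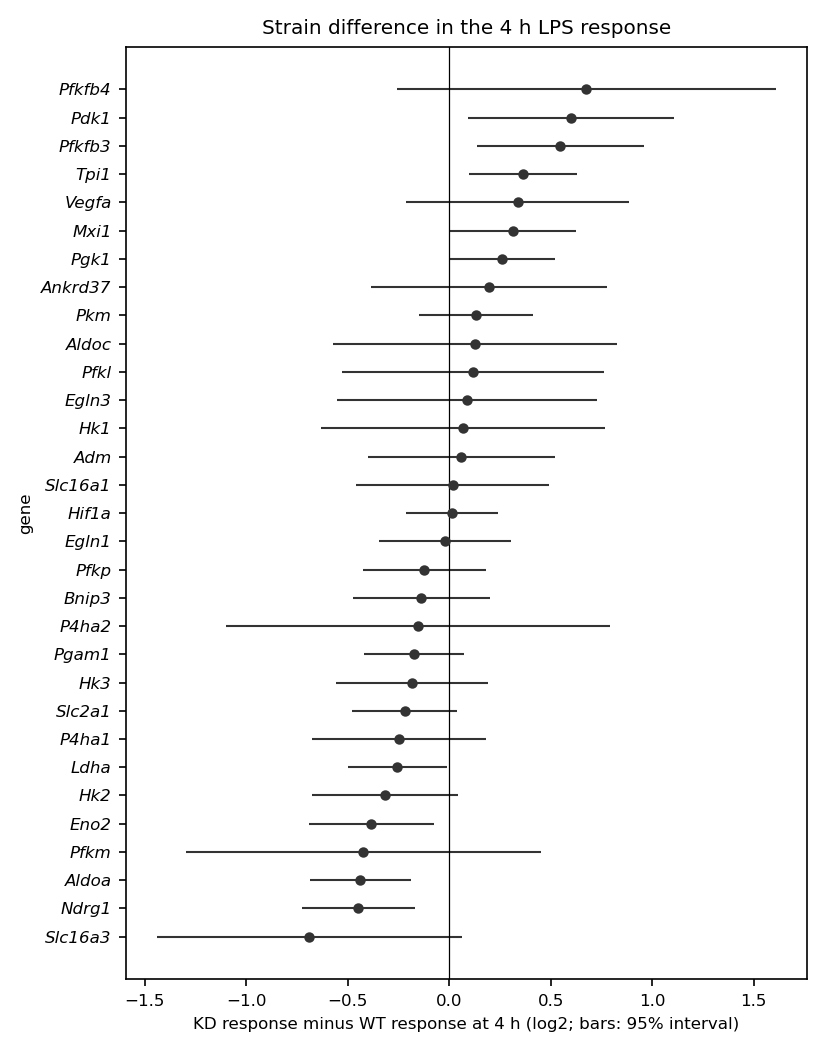
Difference between the strains in the 4 h response (KD minus WT, log2) for the 31 tested members, sorted by size, with 95% intervals from limma. The line marks 0; the interval of Adm runs from -0.40 to 0.52 and that of Aldoa from -0.69 to -0.19, and no member passed an adjusted p of 0.05.

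Levels differed between the strains for a few members. Without LPS, 2 members were higher in KD and 1 was lower, which is 9.68% of 31, against 5.25% of all tested probe sets (2.37% higher and 2.87% lower). Adm was lower in KD by 0.80 ± 0.16 on the log2 scale (limma adjusted p = 0.0053), lost without KD unstimulated replicate 2 (-0.71, adjusted p = 0.0509). The 5 stromal markers that were lower in unstimulated KD moved with it, and their part in it was not tested. Aldoa was higher in KD by 0.40 ± 0.08 (adjusted p = 0.00795), with 4628.3 and 5310.1 in WT against 6882.2 and 6239.8 in KD, and then lay at 5057.5 and 5490.2 in KD at 4 h, a fall of 0.31 ± 0.08 (adjusted p = 0.0204). Ldha was higher by 0.29 ± 0.08 (adjusted p = 0.0482), with 2687.3 and 2791.7 in WT against 3314.9 and 3377.2 in KD. Of the 8 macrophage markers, 3 (Csf1r, Cd14 and Lyz2) were also higher in unstimulated KD, with a summed signal of 21664.3 to 25917.4 against 17847.2 to 18387.3 in WT, as was S100a8, and 3 (Cd68, Lyz2 and Mertk) fell in KD at 4 h, where the sum was 20151.2 to 21629.5. The part of these markers in the Aldoa and Ldha values was not tested. Array medians were also higher in KD. After quantile normalization, which sets them equal, Aldoa differed by 0.12 without LPS (adjusted p = 0.382) and changed by -0.10 with LPS at 4 h in KD (adjusted p = 0.410), and Ldha differed by 0.23 (adjusted p = 0.0636), none of them called. In that setting 0 members were higher and 2 (Adm and Eno2) lower in unstimulated KD. The higher levels of Aldoa were also lost without WT unstimulated replicate 1 (0.30, adjusted p = 0.189) and without KD unstimulated replicate 1 (0.33, adjusted p = 0.0530), and the fall in KD without KD unstimulated replicate 1 (-0.24, adjusted p = 0.132) and without KD 4 h replicate 1 (-0.26, adjusted p = 0.218). Ldha was called in none of the 4 fits without an array. The log2 ratio of the Gapdh probe sets at the 3′ and the 5′ end, a measure of RNA quality, was highest on KD unstimulated replicate 1 (1.35, with a lowest value of 0.807), and its part in these differences was not tested.

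With LPS, 1 member was called between the strains at 1 h (0 higher and 1 lower in KD), which is 3.23% of 31, against 1.11% of all (0.573% higher and 0.533% lower). It was Eno2, lower in KD by 0.46 ± 0.10 (limma adjusted p = 0.0389), held in 1 of 4 fits without an array. At 4 h, 1 member was higher and 3 were lower in KD, which is 12.9% of 31, against 5.37% of all (3.13% higher and 2.24% lower). Eno2 was lower by 0.65 ± 0.10 (adjusted p = 0.000712) in each such fit. Adm was lower by 0.74 ± 0.16 (adjusted p = 0.00734), lost without WT 4 h replicate 1 (-0.71, adjusted p = 0.0902) and without KD 4 h replicate 1 (-0.70, adjusted p = 0.0845). Ndrg1 was lower by 0.47 ± 0.09 (adjusted p = 0.00501), lost without WT 4 h replicate 1 (-0.46, adjusted p = 0.0632) and without KD 4 h replicate 1 (-0.39, adjusted p = 0.105). Ankrd37 was higher by 0.83 ± 0.20 (adjusted p = 0.0163), held in 1 of 4 such fits. Adm was thus lower in KD without LPS and at 4 h, and Eno2 was lower at both LPS times and, after quantile normalization, also without LPS. The stromal markers (3 higher and 1 lower of 11 in KD at 4 h) and S100a8 differed between the strains too, and their part in these differences was not tested.

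Genes of neighbouring pathways that are not in the set of 35 give the setting. Their counts, here and below, stand beside the shares of all tested probe sets called. These were 6.12% in WT at 1 h, 17.1% in WT at 4 h, 5.47% in KD at 1 h and 10% in KD at 4 h. Of 10 tested further glycolysis isozymes and glucose transporters, 1 rose and 0 fell in WT at 1 h, 1 rose and 4 fell in WT at 4 h, 0 were called in KD at 1 h, and 1 rose and 2 fell in KD at 4 h. The riser was Slc2a6, a glucose transporter of the lysosomal membrane, with 132.7 and 130.7 in WT without LPS against 1304.1 and 1193 at 4 h, a log2 change of 3.20 ± 0.20 (limma adjusted p = 6.16e-10), and a change of 1.95 ± 0.20 in KD (adjusted p = 1.51e-06). Among those that fell in WT at 4 h were Pfkfb2, a further isozyme of Pfkfb3 (-1.35 ± 0.30, adjusted p = 0.00346; -0.80, adjusted p = 0.0901 without WT 4 h replicate 2) and the dim Slc2a8, a further transporter (-1.74 ± 0.58, adjusted p = 0.0456, held in 1 of 4 fits without an array). The other genes that fell, named after their values were seen, did so in both strains. Bpgm, which makes 2,3-bisphosphoglycerate, had a log2 change of -0.99 ± 0.16 in WT (adjusted p = 0.000145), held in every fit without an array, and of -0.54 ± 0.16 in KD (adjusted p = 0.0366), held in 1 of 4. With its probe set without a cross-hybridisation suffix these were -0.52 and -0.57, not called. Slc2a3, the glucose transporter GLUT3, had -0.77 ± 0.20 in WT (adjusted p = 0.0107) and -0.75 ± 0.20 in KD (adjusted p = 0.0198). These calls were lost without WT unstimulated replicate 2 (-0.70, adjusted p = 0.0911) or WT 4 h replicate 1 (-0.74, adjusted p = 0.0746), and without KD unstimulated replicate 2 (-0.54, adjusted p = 0.214) or KD 4 h replicate 1 (-0.52, adjusted p = 0.266). Of 8 tested genes of glycogen metabolism, 1 rose in WT at 1 h and 4 fell in WT at 4 h, and 2 fell in KD at 4 h. The 2 glycogen phosphorylase genes tested fell in WT, Pygb by 1.39 ± 0.18 (adjusted p = 1.72e-05) and Pygl by 0.96 ± 0.13 (adjusted p = 3.22e-05), as did glycogenin, Gyg, by 0.82 ± 0.08 (adjusted p = 4.72e-07). In KD, Gyg fell by 0.47 ± 0.08 (adjusted p = 0.000686) and Pygl by 0.45 (adjusted p = 0.0389, held in 1 of 4 fits without an array).

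Of 11 tested genes for the entry of pyruvate into mitochondria, 2 fell in WT at 1 h, 2 rose and 3 fell in WT at 4 h, 1 rose in KD at 1 h and 1 in KD at 4 h. Pdp1, the phosphatase that switches pyruvate dehydrogenase on, had a log2 change of -1.82 ± 0.18 in WT at 4 h (limma adjusted p = 4.7e-07). Pdk4, a kinase that switches it off, fell in WT by 0.45 ± 0.15 (adjusted p = 0.0401, held in 1 of 4 fits without an array) and rose in KD by 0.67 ± 0.15 (adjusted p = 0.0048), lost without KD 4 h replicate 2 (0.62, adjusted p = 0.0565). Pdk3, a related kinase, fell in WT by 0.77 (adjusted p = 0.0428), in none of the 4 fits without an array. Of 8 tested genes of the pentose phosphate pathway, 1 rose in WT and 1 in KD at 1 h, and 2 fell in WT at 4 h, H6pd by 0.71 ± 0.17 (adjusted p = 0.00494) and Rpe by 0.38 (adjusted p = 0.0323). H6pd was lost without WT unstimulated replicate 2 (-0.54, adjusted p = 0.0977) and without WT 4 h replicate 2 (-0.59, adjusted p = 0.0711), and Rpe in 3 of 4 such fits. Of 15 tested genes of the tricarboxylic acid cycle, 2 rose in WT at 1 h and 1 fell in KD at 4 h, Sdhb, by 0.38 (adjusted p = 0.0415), in none of the 4 fits without an array.

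Of 11 tested other components of the HIF pathway, 1 fell in WT at 4 h and 1 in KD at 1 h. The former was Arnt, the partner of HIF-1α, by 0.31 (limma adjusted p = 0.0494), held in 1 of 4 fits without an array. Of 23 tested further hypoxia response genes, 3 rose in WT at 1 h, 8 rose and 2 fell in WT at 4 h, 4 rose in KD at 1 h, and 5 rose and 2 fell in KD at 4 h. Ak4, a mitochondrial adenylate kinase, gave 256.6 and 207.5 in WT without LPS against 1120.7 and 1115.4 at 4 h, and 231.4 and 274.3 in KD against 963.2 and 734.1. Its log2 change was 2.25 ± 0.15 in WT (adjusted p = 1.37e-09) and 1.72 ± 0.15 in KD (adjusted p = 1.42e-07). Pdgfb, a platelet-derived growth factor chain, rose in WT by 1.29 ± 0.30 (adjusted p = 0.00459), lost without WT unstimulated replicate 2 (1.15, adjusted p = 0.0563) and without WT 4 h replicate 1 (1.19, adjusted p = 0.0601). Lox, an enzyme that crosslinks collagen, rose in KD at 4 h by 0.86 ± 0.12 (adjusted p = 8.01e-05), and 5 stromal markers rose in the same comparison, whose part in it was not tested.

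The number of members called changed when 1 array was left out. So did the share of all tested probe sets, which is given in percent after each count. Such a fit rests on a single array in 1 group, so a call can be lost while the estimate stays alike. In WT at 1 h, 8 members (6.12% of all) became 4 (2.65%) without WT unstimulated replicate 1, 2 (3.33%) without WT unstimulated replicate 2 and 2 (2.97%) without WT 1 h replicate 2. In WT at 4 h, 10 (17.1%) became 6 without WT unstimulated replicate 1 (10.5%) and 6 without WT 4 h replicate 1 (10.4%). Between 1 h and 4 h in WT, 12 (15.8%) became 7 without WT 1 h replicate 2 (10.7%) and 7 without WT 4 h replicate 1 (9.81%). In KD at 1 h, 3 (5.47%) became 1 without KD 1 h replicate 1 (2.93%). From 1 h to 4 h in KD, 7 (8.43%) became 2 without KD 1 h replicate 1 (5.33%), 3 without KD 1 h replicate 2 (4.66%), 3 without KD 4 h replicate 1 (4.36%) and 4 without KD 4 h replicate 2 (5.15%). Between the strains without LPS, 3 (5.25%) became 1 without WT unstimulated replicate 1 (0.97%) and 1 without KD unstimulated replicate 1 (4.83%). At 1 h, 1 (1.11%) became 3 without WT 1 h replicate 1 (0.956%) and 0 without WT 1 h replicate 2 (0.544%), KD 1 h replicate 1 (0.462%) or KD 1 h replicate 2 (0.448%). At 4 h, 4 (5.37%) became 1 without WT 4 h replicate 1 (1.93%) and 1 without KD 4 h replicate 1 (1.99%). Members called in every such fit in WT were Hk2 and Vegfa at 1 h, and Hk2, Eno2, Hif1a, Adm and, lower, Mxi1 at 4 h. In KD they were Vegfa at 1 h, and Hif1a and Adm at 4 h.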

How the data were processed

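RNA from 12 cultures was measured on one-colour Affymetrix arrays. The authors deposited linear signal intensities per probe set. The submitters' processing notes name MAS5, and its version is not given in the sources used here. Signals were used as deposited and turned into log2(value + 4.4), 4.4 being the 20th percentile of all values, which understates changes of dim genes. Array controls (64 of 45101 probe sets) and probe sets above the array median on fewer than 2 arrays were left out, which left 27931. A model with 1 mean per group was fitted in R 4.3.3 (limma 3.58.1), with a variance prior that follows mean signal, and p-values were adjusted by Benjamini-Hochberg within each of 11 comparisons. The script was tested on simulated data.

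Symbols came from the platform annotation, in which 34958 probe sets have 1 symbol, 932 have several and 9211 have none. Genes were named where called with replicates that did not overlap, and from each further list up to 3 called at 4 h with the largest change; Cs, Bpgm and Slc2a3 were added after their values were seen. Members and lists were chosen with earlier results of these data known. Promoters came from RefSeq (GRCm38.p6), the most upstream window of a gene, without the bases after the start. Same-numbered replicates did not deviate together (correlations -0.0682 to 0.0401 over 15 pairs of groups), so samples were not paired. Alternatives were quantile normalization, no filter, pseudocounts of 1 and 23.4, no trend in the prior, only the arrays compared, a replicate block, probe sets without a cross-hybridisation suffix and leaving out each array. The number of arrays limits the precision.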

Additional observations from a re-analysis of the deposited data

Results flagged for a closer look

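The test of the difference between the strains' responses was called for 6 genes of the neighbouring pathways, 1 of them at both times. These differences were the reason to list them. In this test 0.326% of all tested probe sets were called at 1 h and 3.07% at 4 h. At 4 h, 1 of 10 tested further glycolysis genes was higher and 1 lower, and 2 of 11 for pyruvate entry were higher. Of the tricarboxylic acid cycle 1 of 15 was called, and of further hypoxia response genes 1 of 23, the latter also at 1 h. Of the pentose phosphate, glycogen and other HIF lists, 0 of 8, 0 of 8 and 0 of 11 were called. Values are log2 changes in KD minus those in WT, with limma's adjusted p.

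At 1 h the difference was 0.84 for Lox (adjusted p = 0.0414, lost in 6 of 8 fits that each omitted an array). Its WT signals were 1775.6 and 1682.2 without LPS and 1510 and 1381.8 at 1 h, and its KD signals 1344.4 and 1136 without LPS and 2178.7 and 1578.3 at 1 h. At 4 h, with 1767.2 and 1765.3 in WT and 2281.7 and 2210.1 in KD, the difference was 0.83 (adjusted p = 0.0121, lost in 3 of 8 fits). Of 11 stromal markers, 1 (Thbs2) was called higher in the same test at 1 h and 5 (Col1a1, Col1a2, Col3a1, Col6a1 and Thbs2) at 4 h, and their part in the Lox values was not tested.

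The other 5 differed at 4 h. Pdk4 differed by 1.12 (adjusted p = 0.00557, held in 8 of 8 fits), with 1484.5 and 1472.7 going to 1217.8 and 959.8 in WT and 1203.4 and 1141.7 going to 1799.8 and 1938 in KD. Pdp1 differed by 1.31 (adjusted p = 0.00838), lost without WT unstimulated replicate 1 (1.28, adjusted p = 0.0511) and without WT 4 h replicate 1 (1.09, adjusted p = 0.0655). It went from 412.5 and 397.7 to 95.5 and 130.1 in WT, and from 251.3 and 272.9 to 173.8 and 191.3 in KD. Its difference between the strains without LPS was -0.62 (adjusted p = 0.0552, not called). Slc2a6 differed by -1.25 (adjusted p = 0.0203, lost in 6 of 8 fits), a smaller rise in KD, where it went from 145.8 and 245.5 to 741.3 and 748.8. Slc2a8 differed by 3.07 (adjusted p = 0.0491, lost in 6 of 8 fits) at dim signals, 59.3 and 48.9 going to 31.7 and 4 in WT, and 8.2 and 19.1 going to 25.6 and 57.5 in KD. Cs, the citrate synthase of the tricarboxylic acid cycle, was named after its values were seen. It differed by -0.53 (adjusted p = 0.0241, lost in 4 of 8 fits, without the filter and after quantile normalization), with 2135 and 2416.5 going to 2869.1 and 2577.6 in WT and 3166.1 and 3264 going to 2557.8 and 2763.2 in KD. Another probe set of Cs gave -0.17 (adjusted p = 0.629).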

How the results depend on the processing

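No called change of a member or named gene turned its direction under the alternatives run, of which the one on probe sets only preferred those without a cross-hybridisation suffix. Some probe sets that it did not select went the other way. Among them were second probe sets of Pfkfb3, Hk3 and Mxi1, none of them called, and a dim one of Ndrg1. Without a trend in the variance prior, the number of members called was 1 in WT at 1 h (Vegfa), 6 in WT at 4 h, 5 from 1 h to 4 h in WT, 1 in KD at 1 h, 2 in KD at 4 h (Adm and Vegfa), 2 from 1 h to 4 h in KD, and 0, 0 and 1 between the strains without LPS, at 1 h and at 4 h. The shares of all tested probe sets called were lower too, in the same order 1.74%, 11.3%, 9.78%, 1.81%, 4.75%, 3.44%, 0.247%, 0.0609% and 1.8%. With only the arrays compared, it was 5 in WT at 1 h (4.97% of all), 1 between the strains without LPS (2.42%) and 0 at 1 h (0.784%). Without the filter it was 0 between the strains at 1 h (0.469%). For the strain difference in the 4 h response, it was 1 after quantile normalization (Pgk1, with 2.96% of all called). With a pseudocount at the median it was 1 as well (Aldoa, with 3.29% of all called). The causes of these shifts were not tested. Among called changes of single members and named genes, calls lost numbered 75 without a trend in the prior (44 were still called), 23 without the filter, 23 with only the arrays compared, 15 after quantile normalization, 10 with the block, 16 with probe sets without a suffix, 6 with a pseudocount of 1 and 0 at the median. Quantile normalization gave a split of higher to lower of 6 to 5 in WT at 4 h, where 16% of all tested probe sets were called. In KD it gave 4 to 2 at 4 h (10.4% of all) and 4 to 3 from 1 h to 4 h (8.95%). Between the strains it gave 0 to 2 without LPS (5.28%) and 2 to 3 at 4 h (4.89%). Counts of members with 1 array left out are given above for several comparisons, beside the shares of all tested probe sets. With the replicate number as a block, 7, 9 and 11 members were called in WT at 1 h, at 4 h and from 1 h to 4 h. The shares of all tested probe sets were 5.84%, 16.6% and 15.3%. In KD 3, 6 and 6 were called (5.23%, 9.54% and 8.13% of all). Between the strains 2, 1 and 4 were called without LPS, at 1 h and at 4 h (4.88%, 1.01% and 5.08%). For the differences in response at 1 h and 4 h, 0 and 0 were called (0.426% and 2.75%). With 2 arrays per group, small changes are not detectable, and dim genes are near background.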
